A study of Arabidopsis thaliana with 4 samples.

Results

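The genes described here are 10 Arabidopsis thaliana genes of cellulose synthesis in the primary cell wall, the thin wall laid down while cells grow. They were taken by gene code: the cellulose synthase subunits CESA1 (AT4G32410), CESA2 (AT4G39350), CESA3 (AT5G05170), CESA5 (AT5G09870) and CESA6 (AT5G64740), and the partners KOR1 (AT5G49720), COB (AT5G60920), CTL1 (AT1G05850), CSI1 (AT2G22125) and THE1 (AT5G54380). Each code was named by 1 probe set, a group of short probes for 1 transcript, and that probe set named no other gene, so that 10 of the 20341 genes on the array with a probe set of their own make up the group. Transcript levels were measured in roots of plants aged 4 weeks from hydroponic culture. The 4 groups were wild type and wrky47, each in control solution and in Al, with 1 array each. Both solutions held 0.5 mM CaCl2 and were given for 6 h, and the Al solution also held 25 µM AlCl3. The mutant line, wrky47-1, is mutated in WRKY47, which encodes a transcription factor. It is a single allele, and the labels do not say how many plants went into a sample.

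Cellulose is spun at the plasma membrane by a large complex of CESA proteins that takes UDP-glucose from the cytosol and extrudes glucan chains into the wall. In primary walls the complex needs CESA1 and CESA3, and its remaining position is filled by CESA6 or by the related CESA2 and CESA5, which can partly replace it. KOR1 is a membrane-bound cellulase that travels with the complex, CSI1 tethers the complex to cortical microtubules, COB is a GPI-anchored protein needed for oriented cellulose deposition, and CTL1 is a secreted chitinase-like protein needed for normal cellulose assembly. THE1 is a receptor kinase of the plasma membrane that senses impaired cellulose synthesis and restrains growth. In roots the complex is needed for the elongation of cells behind the tip.

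With 1 array per group there is no spread between replicates, so no test was possible and no p-value is given. Each difference is a log2 difference between single arrays. Differences of 1 or more on that scale (2-fold) were called, and differences past 1.5-fold were counted beside them. A gene was measured where its signal exceeded the 40th percentile of the array, a floor that lay at signals of 81.1 or less, and 12838 to 12855 genes were above it on an array. All 10 cellulose genes were above the floor on all 4 arrays, so none entered through 1 group only. WRKY47 itself was below the floor on both mutant arrays, which put wild type at least 2.19-fold above the mutant without Al and at least 2.71-fold above it with Al.

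Markers of cell types differed between the arrays. The 7 root markers were all above the floor in wild-type control, 6 were above it in wrky47 control and 5 on each Al array. Their summed signal was 6645 for the wild type and 4554 for wrky47 without Al, and 3222 for the wild type and 2639 for wrky47 with Al. Much of that sum was CASP1, a protein of the Casparian strip of the endodermis, with signals of 2649, 1288, 250 and 193 in the same order. PHO1, a phosphate exporter of the stele, was at 2567, 1966, 1874 and 1354, lower in wrky47 in both solutions. PIN2, an auxin carrier of the outer root layers, was nearly level at 460, 437, 447 and 439. SCR, a regulator of the endodermis, was at 366, 416, 287 and 297, higher in wrky47 by a log2 difference of 0.19 in control solution and 0.05 in Al. SHR, another root marker, was at 365, 300, 269 and 266, lower in wrky47 (log2 differences -0.29 and -0.02). The epidermal regulator WER was below the floor on 3 arrays and the root hair expansin EXPA7 on both Al arrays. The 4 measured markers of dividing cells had summed signals of 1833, 1814, 1007 and 1096, again for the wild type and wrky47 without Al and then with Al. Of 8 markers of green tissue 3 to 5 were above the floor, with summed signals of 831, 618, 995 and 792 in that order, lower in wrky47 in both solutions, and LHCB6, PSAD2 and GAPA were below it on every array. The ratio of the 3′ to the 5′ GAPDH probe set, a measure of RNA integrity, was 1.12 for the wild type and 0.999 for wrky47 without Al, and 1.19 for the wild type and 1.04 for wrky47 with Al. The actin probe sets, in the same order, had 3′ signals of 3969, 3539, 4168 and 4542 and 5′ signals of 1043, 1029, 1129 and 1121. Unlike for GAPDH, the 3′ signal of actin was thus far above the 5′ signal on every array. In whole roots fewer cells of a type and less RNA per cell cannot be told apart, and the part of these values in the differences below was not tested.

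No cellulose gene was called in any comparison, and the pattern of the group lay in small differences. The 5 CESA genes hardly differed between the genotypes in control solution. In Al every one of the 10 genes was lower in wrky47 than in wild type, by 0.08 to 0.34 on the log2 scale. Under Al, CESA1, CESA3, CESA5, CESA6 and CTL1 were higher than in control solution in wild type, and CESA2, KOR1, COB, CSI1 and THE1 were lower. THE1 had the widest range over the 4 arrays, 0.87 on the log2 scale (1.83-fold), and KOR1 the narrowest, 0.20 (1.15-fold).

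**Figure D1:**
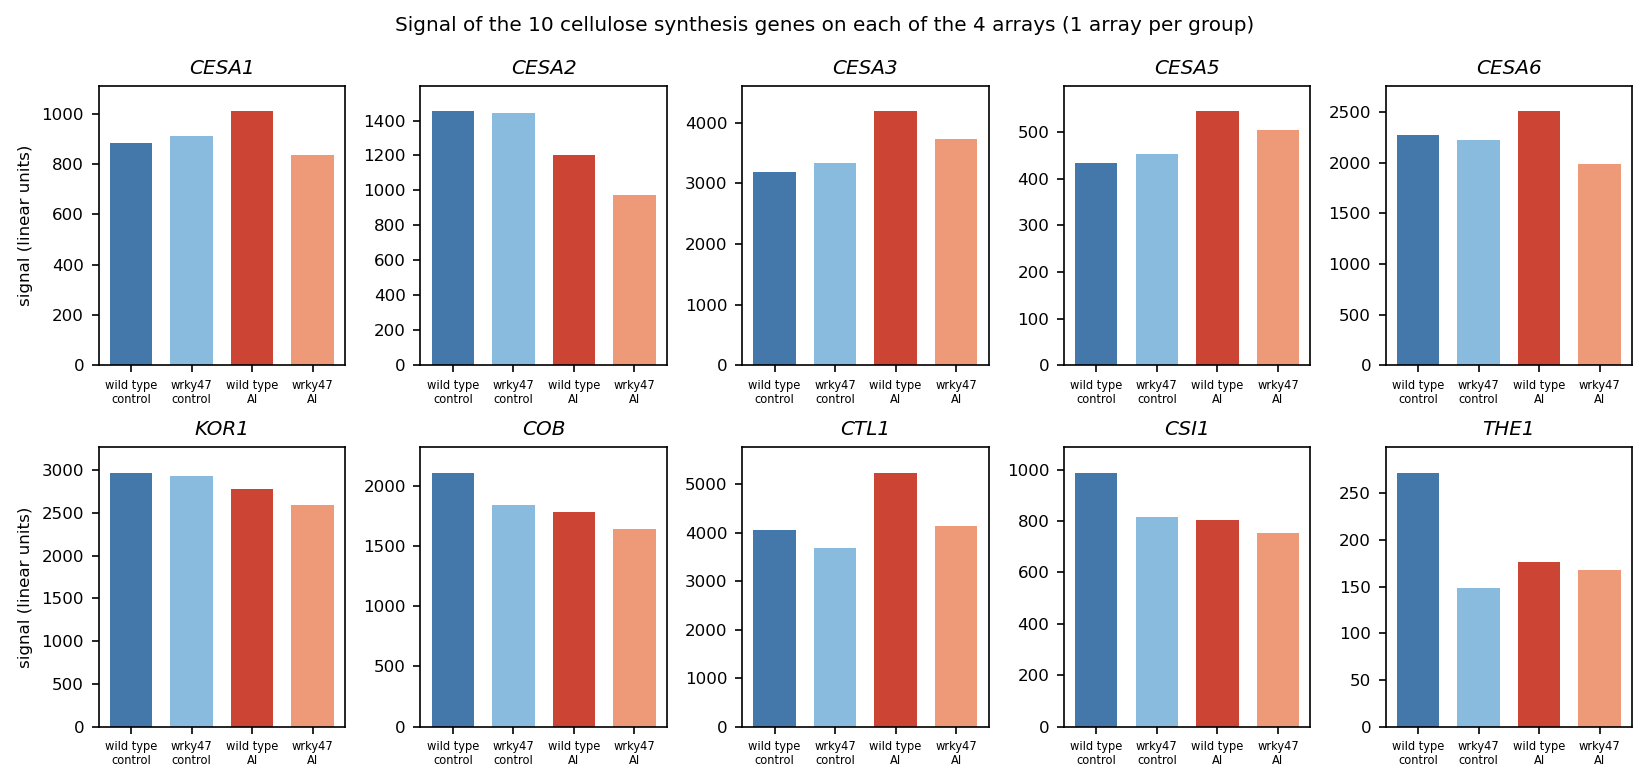
Signal of each of the 10 genes in linear units on the 4 arrays, both controls (blue) before both Al arrays (red), 1 bar per array, with a separate axis from 0 for each gene. CESA1, CESA3, CESA5, CESA6 and CTL1 are highest in wild-type Al, and the other 5 in wild-type control.

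CESA1 and CESA3 hold the obligatory positions of the primary-wall complex. The CESA1 signal was 884 for the wild type and 910.1 for wrky47 without Al, and 1009 for the wild type and 835 for wrky47 with Al. The CESA3 signal was 3191 for the wild type and 3334 for wrky47 without Al, and 4189 for the wild type and 3736 for wrky47 with Al. Both were highest in wild-type Al, but the lowest array was wrky47 Al for CESA1 and wild-type control for CESA3. The log2 difference of Al against control was 0.19 in wild type and -0.12 in wrky47 for CESA1. For CESA3 it was 0.39 and 0.16, so that CESA3 was higher in Al in both genotypes and CESA1 in wild type alone. In wild type CESA3 had the highest value of the group, and 11.6% of all measured genes lay above it.

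CESA6 and its relatives CESA2 and CESA5 showed unlike values under Al. The CESA6 signal was 2271 for the wild type and 2229 for wrky47 without Al, and 2509 for the wild type and 1988 for wrky47 with Al. That of CESA5, which also serves in the mucilage of the seed coat, was 434, 453, 544 and 505 in the same order. That of CESA2 was 1452, 1441, 1203 and 971. CESA2 was thus lower on both Al arrays than on both control arrays, whereas CESA5 was higher on both, and CESA6 was higher in wild-type Al and lower in wrky47 Al than in either control. The Al response of CESA2 was -0.27 in wild type and -0.57 in wrky47, where 7.45% of all genes lay lower. The response of CESA5 was 0.33 and 0.16, and that of CESA6 was 0.14 and -0.17.

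A difference between 2 genes on the same pair of arrays is free of any constant factor between the arrays, but not of quantile normalization, which rescales each signal by its rank. CESA2 changed relative to CESA6 by -0.42 in wild type and -0.40 in wrky47, and by -0.43 and -0.44 after quantile normalization. With 1 array per group the nearness of these values does not measure reproducibility, and the pairs were added after seeing the data. Relative to CESA5, CESA2 was at -0.60 and -0.72. Relative to CESA3, CESA1 was at -0.20 in wild type and -0.29 in wrky47, and CESA6 at -0.25 and -0.33. The order of the 5 Al responses from the highest was CESA3, CESA5, CESA1, CESA6 and CESA2 in both genotypes. Without replicate arrays it is unknown which neighbours in this order differ beyond their spread, and CESA3 and CESA5 were 0.01 apart in wrky47. Between the genotypes in control solution CESA2 relative to CESA6 was at 0.02. The CESA proteins are closely related, and whether a probe set picks up transcripts of a relative was not tested.

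The response to Al was lower in wrky47 than in wild type for every one of the 5 CESA genes. The difference of the responses, wrky47 minus wild type, was -0.31 for CESA1, -0.30 for CESA2, -0.23 for CESA3, -0.17 for CESA5 and -0.31 for CESA6. These 5 values spanned 0.14, against a spread of 0.66 among the same genes in the wild-type response. The median over all 12223 genes detected on every array was 0.05, and 40.3% of these genes were below 0. The lowest of the 5, CESA1, had 5.73% of all genes below it. The difference of the responses is also the genotype difference in Al minus that in control solution, and these parts were unlike. In control solution the 5 genes lay between -0.03 and 0.06, and in Al between -0.34 and -0.11. A lower response in wrky47 was not particular to them. The 5 genes of secondary-wall cellulose described below were also all below 0 in the difference of the responses. Their values lay between -0.48 and -0.05, with a median of -0.22.

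KOR1 and CSI1 act on the complex inside the cell and at the membrane. The KOR1 signal was 2966 for the wild type and 2933 for wrky47 without Al, and 2779 for the wild type and 2591 for wrky47 with Al, the steadiest of the group. Its Al response was -0.09 in wild type and -0.18 in wrky47. The CSI1 signal was 987 for the wild type and 816 for wrky47 without Al, and 805 for the wild type and 755 for wrky47 with Al. CSI1 thus stood highest in wild-type control and within a narrow band on the other 3 arrays. Its genotype difference was -0.27 in control solution and -0.09 in Al, and its Al response -0.29 in wild type and -0.11 in wrky47. The CSI1 probe set has an alignment of 505 bases in the deposited table, the shortest of the group, while those of the CESA genes span 4620 to 5381 bases.

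COB and CTL1 act at the wall side of the membrane and in the wall. The COB signal was 2106 for the wild type and 1842 for wrky47 without Al, and 1783 for the wild type and 1644 for wrky47 with Al, lower in Al than in control and lower in wrky47 than in wild type on each pair of arrays. The CTL1 signal was 4053 for the wild type and 3682 for wrky47 without Al, and 5234 for the wild type and 4135 for wrky47 with Al. CTL1 was higher in Al in both genotypes, by 0.37 in wild type and 0.17 in wrky47, as CESA3 was (0.39 and 0.16). In Al its genotype difference of -0.34 was the lowest of the 10 genes, with 5.24% of all genes below it. COB, in contrast, had an Al response of -0.24 in wild type and -0.16 in wrky47, and CTL1 relative to COB was at 0.61 and 0.33.

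THE1 was the gene that differed most between the genotypes without Al. Its signal was 272 for the wild type and 149 for wrky47 without Al, and 177 for the wild type and 168 for wrky47 with Al. The wild-type control array was thus high and the other 3 lay close together. In control solution the THE1 signal of wrky47 was 1.83-fold below that of wild type (log2 difference -0.87), and 0.413% of the 12602 measured genes lay lower. In Al the genotype difference was -0.08. The Al response was -0.62 in wild type and 0.17 in wrky47, and the difference of the responses was 0.79, with 0.442% of genes above it. These 3 large values share the wild-type control array and are not independent of each other. Of the 10 genes THE1 has the signals nearest to the floor, and with the floor at the 60th percentile it was not measured.

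**Figure D2:**
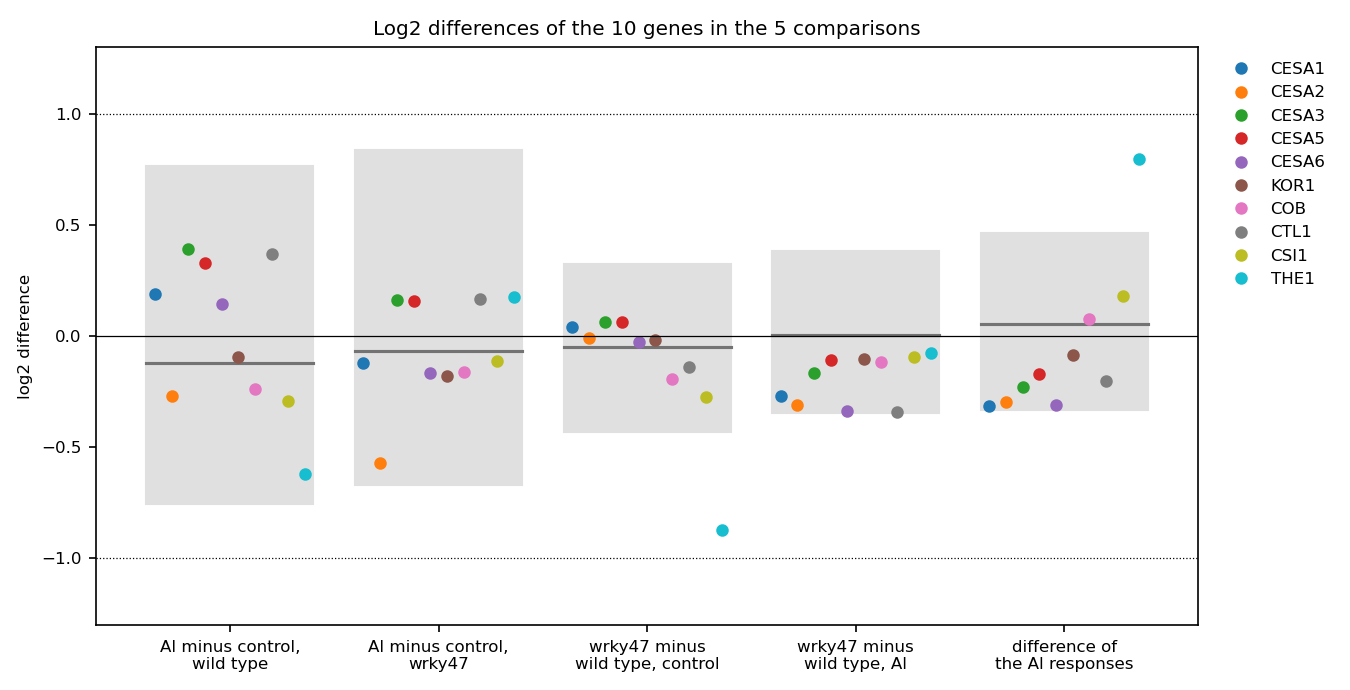
Log2 differences of the 10 genes (coloured points) in the 5 comparisons, with grey boxes for the central 90% of all measured genes, grey lines for their median and dotted lines at 2-fold. All points lie within 2-fold. In wrky47 minus wild type in Al all 10 are below 0, and THE1 is outside the grey box in control solution and in the difference of the responses.

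Set against all genes, the counts were as follows. For Al in wild type 0 of 10 were higher or lower by 2-fold, where 3.05% of 12434 genes were higher and 2.42% lower. THE1 was the 1 gene lower by 1.5-fold, against 9.39% of all genes, and none was higher, against 7.47%. By sign 5 were above 0, against 35.9% of all genes, and 5 below, against 64.1%, and the median of the 10 was 0.02 beside -0.12 for all genes. These counts lay near the background, and the CESA median of 0.19 was that of CESA1.

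For Al in wrky47, 0 of 10 passed 2-fold, where 3.42% of 12465 genes were higher and 1.97% lower. None passed 1.5-fold either, against 8.76% higher and 7.06% lower, and CESA2 came closest. There were 4 genes above 0 (CESA3, CESA5, CTL1 and THE1), against 42.2% of all genes, and 6 below, against 57.8%. The median was -0.12 beside -0.07 for all genes.

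For wrky47 against wild type in control solution 0 of 10 passed 2-fold, where 0.103% of 12602 genes were higher and 0.206% lower. THE1 was again the 1 gene lower by 1.5-fold, against 1.87% of all genes, and none was higher, against 0.92%. By sign 3 were above 0, against 39.9% of all genes, and 7 below, against 60.1%, but CESA2, CESA6 and KOR1 were within 0.03 of 0, and each came above 0 under all 3 alternative scalings (by quantiles, by the median and by the 75th percentile). The median was -0.02 beside -0.05 for all genes.

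For wrky47 against wild type in Al, 0 of 10 passed 2-fold, where 0.23% of 12602 genes were higher and 0.111% lower, and none passed 1.5-fold, against 1.36% and 1.0%. All 10 were below 0, against 49.3% of all genes, and none above, against 50.7%. The median was -0.14 beside 0.00 for all genes, and the 10 values spanned 0.26. CTL1, CESA6, CESA2 and CESA1 (-0.34, -0.34, -0.31 and -0.27) lay furthest down, THE1, CSI1 and KOR1 (-0.08, -0.09 and -0.10) nearest to 0. All 10 values come from the same pair of arrays, and the 10 signs are not 10 independent measurements. The 10 kept their sign under the 8 alternatives other than thresholds, apart from THE1 at the higher floor, where it had no value.

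In the difference of the Al responses 0 of 10 passed 2-fold, where 0.131% of 12223 genes were higher and 0.0573% lower. THE1 was the 1 gene above 1.5-fold, against 2.1% of all genes, and none was below, against 0.875%. By sign 7 were below 0, against 40.3% of all genes, and COB (0.08), CSI1 (0.18) and THE1 were above, against 59.6%. The median was -0.19 beside 0.05 for all genes.

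**Figure D3:**
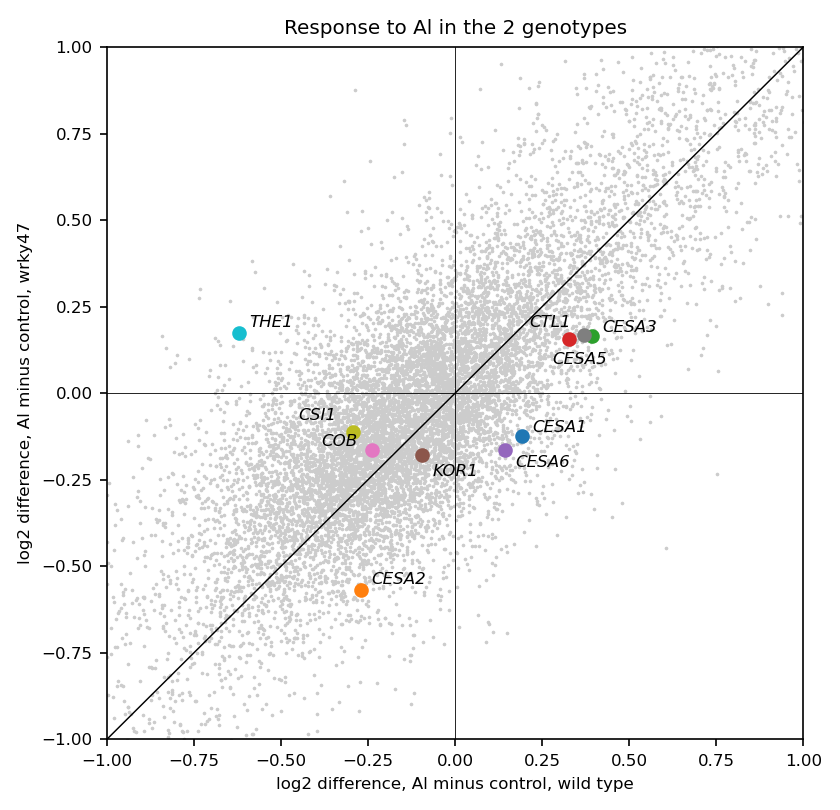
Log2 difference of Al against control in wild type (horizontal axis) and wrky47 (vertical axis) for the 10 genes (coloured) and for all genes detected on the 4 arrays (grey) that fall within 1 on both axes; the line marks equal responses. The 5 CESA genes, CTL1 and KOR1 lie below the line, and COB, CSI1 and THE1 above it.

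Other genes of cellulose synthesis were then placed beside the 10. The list of 16 held relatives of the CESA genes, of CSI1 and of KOR1, enzymes of protein glycosylation and further genes, some given here by code alone, of which 14 had a probe set of their own and 10 were measured in each comparison. CESA9, CESA10 and CSI2 were below the floor on every array. None passed 2-fold, where with Al 3.05% of all genes were higher and 2.42% lower in wild type, and 3.42% and 1.97% in wrky47. KOR2, a close relative of KOR1, came near 2-fold with Al. Its signal was 556 for the wild type and 555 for wrky47 without Al, and 1108 for the wild type and 1078 for wrky47 with Al. The response of KOR2 was thus 0.99 and 0.96, where KOR1 was at -0.09 and -0.18, and KOR2 passed 2-fold in wild type under the same 3 alternative scalings. CSI3, a relative of CSI1, was at -0.46 in wild type and -0.45 in wrky47. AT5G42860 was at -0.56 and -0.48, and AT2G41770 at 0.47 in both. CYT1, which makes GDP-mannose for protein glycosylation, was at 0.25 in wild type and 0.46 in wrky47. The list medians were 0.11 and 0.06 for Al in wild type and wrky47, and -0.04 and -0.05 for the genotype in control solution and Al.

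The supply of UDP-glucose, the substrate of the complex, was represented by 6 sucrose synthases, 2 cytosolic invertases and 2 UDP-glucose pyrophosphorylases. Of these 8 were measured, SUS2 and SUS3 being below the floor on every array. None passed 2-fold, against 3.05% of all genes higher and 2.42% lower with Al in wild type, and 3.42% and 1.97% in wrky47. The invertase CINV1 had signals of 2496 for the wild type and 2475 for wrky47 without Al, and 3366 for the wild type and 3254 for wrky47 with Al, and its Al response was 0.43 and 0.39. SUS1 was at 0.37 in both genotypes. The pyrophosphorylase UGP1 was at -0.57 in wild type and -0.21 in wrky47, SUS6 at -0.63 and -0.23, and SUS5 at -0.43 and -0.60. For wrky47 against wild type in Al, 3 of the 8 were above 0 and 5 below, against 50.7% and 49.3% of all genes. The list median was -0.04 beside 0.00 for all genes.

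Among 9 relatives of COB, 7 were measured. COBL2, known from the cellulose of seed mucilage, had signals of 306 for the wild type and 228 for wrky47 without Al, and 834 for the wild type and 774 for wrky47 with Al. It was the 1 gene of the 7 past 2-fold with Al, at 1.45 in wild type and 1.76 in wrky47, against -0.24 and -0.16 for COB. Of all genes 3.05% were higher by 2-fold with Al in wild type and 3.42% in wrky47. COBL9, which serves root hair growth, was at -0.51 and -0.54. COBL5 had the lowest genotype difference of the list in control solution, -0.63, and was at -0.29 in Al.

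The cellulose synthases of the secondary wall, CESA4, CESA7 and CESA8, build the wall of xylem cells. Together with CTL2 and COBL4 (also a relative of COB) they were measured in full. All 5 were below 0 in wrky47 in control solution and in Al, against 60.1% and 49.3% of all genes, with medians of -0.35 and -0.57, beside -0.02 and -0.14 for the 10 genes of the primary wall. In Al CESA4 was at -0.76, CESA7 at -0.65 and CESA8 at -0.57, each lower than the lowest of the primary-wall genes. The CESA7 signal was 249 for the wild type and 163 for wrky47 without Al, and 223 for the wild type and 142 for wrky47 with Al. For CESA7 the genotypes thus differed by about as much without Al (-0.61). For CESA4 and CESA8 they differed less without Al, at -0.28 and -0.35. The Al response of CESA4 was -0.16 in wild type and -0.64 in wrky47. In control solution the primary-wall CESA genes lay between -0.03 and 0.06, above all 5 of the secondary wall. The stele marker PHO1 was also lower in wrky47, by a log2 difference of -0.38 in control solution and -0.47 in Al. The root marker SHR was at -0.29 in control solution but nearly level in Al (-0.02). The part of these markers in the secondary-wall values was not tested. The difference between the groups could not be tested with single arrays.

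**Figure D4:**
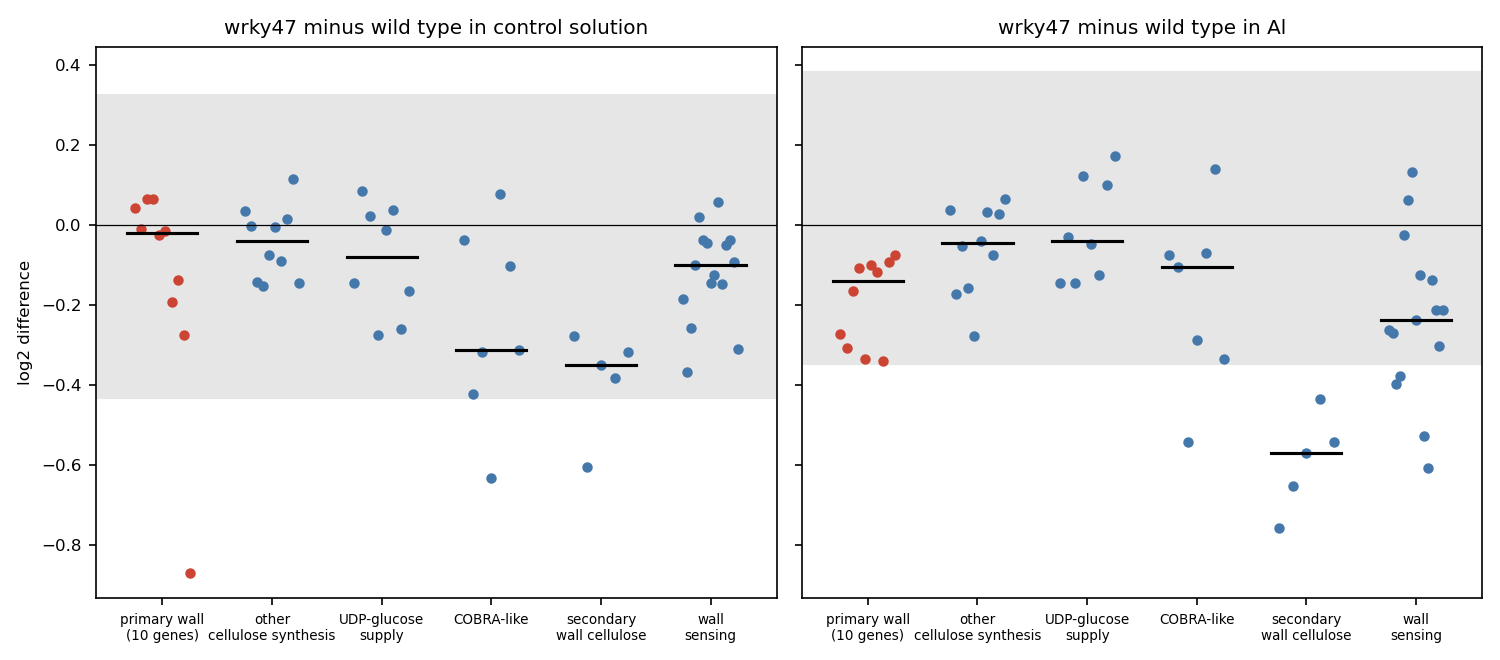
Log2 differences of wrky47 minus wild type in control solution (left) and in Al (right) for the measured genes of the primary wall (red) and of 5 other lists (blue), with black lines for medians and a grey band for the central 90% of all measured genes. The secondary-wall genes have medians of -0.35 and -0.57 and the primary-wall genes -0.02 and -0.14.

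THE1 belongs to a set of wall sensors, peptides and wall proteins, of which 23 were listed, 22 had a probe set of their own and 15 were measured. FER, the best known receptor kinase of the same family, had signals of 2069 for the wild type and 1821 for wrky47 without Al, and 2396 for the wild type and 1997 for wrky47 with Al. FER was higher in Al in both genotypes, by 0.21 in wild type and 0.13 in wrky47, whereas THE1 was at -0.62 and 0.17. The genotype difference of FER was -0.18 in control solution and -0.26 in Al. HERK1, another member of the family, was at -0.37 and -0.27. The peptide RALF34, a ligand of THE1, had signals of 715, 646, 652 and 553 in the same order as FER, the lowest in wrky47 Al.

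Of the other sensing genes LRX3, a wall protein with an extensin domain, was the 1 past 2-fold with Al, at 1.32 in wild type and 1.14 in wrky47. The share of all genes higher by 2-fold with Al was 3.05% in wild type and 3.42% in wrky47. The channel protein MCA1 was at -0.79 and -0.69, and the receptor kinase FEI1 at -0.61 and -0.66, both past 1.5-fold in each genotype. The share of all genes lower by 1.5-fold with Al was 9.39% in wild type and 7.06% in wrky47. The peptides RALF22 and RALF23 were at -0.53 and -0.61 in wrky47 against wild type in Al, with 0.06 and -0.15 in control solution. In both solutions 13 of the 15 measured genes were below 0 in wrky47, against 60.1% of all genes in control solution and 49.3% in Al. The medians were -0.10 and -0.24.

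The annotation of the deposited table gives terms that many of the 10 genes share. The genes were picked for their role in cellulose synthesis, so shared terms close to that role follow from the choice and are not a result. Of the 10 genes 9 carry the term cellulose metabolic process, held by 0.148% of all genes, with THE1 as the exception. The plasma membrane term is held by 9 (14.1% of all genes), with CTL1 as the exception, and cell growth by 8 (0.575%). The term root hair elongation is held by 6, namely CESA1, CESA3, CESA6, KOR1, COB and CTL1 (0.851% of all genes). Of the 10 genes 6 lie on chromosome 5, 2 on chromosome 4 and 1 each on chromosomes 1 and 2. The alignments in that table, whose genome build is not stated, place CESA1 at chr4:15641008-15646388 on the minus strand, CESA2 at chr4:18297077-18301890 on the plus strand and THE1 at chr5:22077312-22079880 on the minus strand. CESA3 is placed at chr5:1530400-1535090 on the minus strand, and CESA5 (chr5:3073355-3077974) and CESA6 (chr5:25881554-25886333) on the plus strand. KOR1 (chr5:20197764-20200168), COB (chr5:24511465-24513932) and CTL1 (chr1:1766832-1768117) lie on the minus strand and CSI1 (chr2:9413719-9414223) on the plus strand.

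The genes most like THE1 over the 4 arrays were sought among the 12222 other genes detected on every array, by the Euclidean distance between log2 profiles centred on their own mean. The nearest genes with a symbol were SPX4 (distance 0.13), LIP2 (0.15) and TTN5 (0.17). SPX4, a sensor protein of phosphate status, had signals of 141 for the wild type and 81.6 for wrky47 without Al, and 93.5 for the wild type and 81.5 for wrky47 with Al. Its values in wrky47 lay little above the floor, which was at 79.1 without Al and 75.1 with Al. LIP2, also near the floor in wrky47, had signals of 142, 87.0, 105 and 96.7 in the same order. TTN5 had signals of 639, 402, 482 and 426 in the same order. Each was high in wild-type control and lower on the other 3 arrays, as THE1 was, which follows from how they were picked. A range as wide as that of THE1 was found in 1551 of the other genes, and 87.3% of genes had a narrower one.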

How the data were processed

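Total RNA from roots was hybridised to 4 arrays, 1 per group, and groups follow the labelled genotype and treatment. The authors deposited log2 signals for 22810 probe sets, per the file headers and the values, and MAS5 is named, with no version, per the submitters' processing notes. The deposited columns headed raw are intensity values on a linear scale equal to 2 to the power of the log2 columns (largest gap 1.6e-06), and the second table held the same values (0 differed). Neither the scaling between arrays nor the genome build is stated. After 64 control probe sets were left out, 20550 probe sets naming 1 gene gave 20341 genes. A gene with several took the probe set of highest mean. Differences of log2 signals were computed with Python 3.11.15 and pandas 2.3.3 for genes above the 40th percentile on the arrays compared. The code for these differences was tested on simulated data with planted changes, while the real differences have no test. The 5 comparisons set Al against control (per genotype), wrky47 against wild type (per solution) and the Al response of wrky47 against that of wild type. The number of arrays limits the precision.

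The 10 genes and the 5 other gene lists were chosen with earlier results of these data known. Genes named from the lists were those past 1.5-fold and up to 3 of largest difference, and a few more for their role, chosen after their values were seen. Symbols came from the table or a RefSeq gene table (TAIR10.1), and a code without one was kept. The alternatives were 10: quantile normalization, centring, scaling to the 75th percentile, no floor, a floor raised to the 60th percentile, call thresholds of 1.5-fold and of 3-fold, averaging probe sets, adding the 20th percentile of the signal before log2, and the second table.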

Additional observations from a re-analysis of the deposited data

Results flagged for a closer look

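Of the 10 genes 3 had Al responses of opposite sign in the genotypes, each from 1 array per group, and the difference was not tested. CESA1 was at 0.19 in wild type and -0.12 in wrky47 (difference -0.31). CESA6 was at 0.14 and -0.17 (difference -0.31). THE1 was at -0.62 and 0.17 (difference 0.79). Seen as genotype differences in control solution and in Al, the signs were opposite for CESA1 (0.04 and -0.27, difference -0.31), CESA3 (0.06 and -0.17, difference -0.23) and CESA5 (0.06 and -0.11, difference -0.17). The control values of these 3 genes lay near 0, and this difference was not tested either.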

How the results depend on the processing

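No paired analysis was possible because each group has 1 array. Among the differences of single cellulose genes, those of CESA2, CESA6 and KOR1 between the genotypes in control solution changed sign under some alternative. The median of the 10 genes for Al in wild type was 0.14 with the floor at the 60th percentile, where THE1 was no longer measured. At 1.5-fold the count of the 10 genes was 1 lower for Al in wild type, 1 lower in wrky47 in control solution and 1 higher in the difference of the responses. Among other lists at 1.5-fold for Al, 1 of 10 other cellulose genes was higher and 1 of 8 UDP-glucose supply genes lower. Of 15 wall-sensing genes 2 were lower. These counts held in wild type and in wrky47 alike. Of all genes 7.47% were higher and 9.39% lower in wild type, and 8.76% and 7.06% in wrky47. Of 5 secondary-wall genes 1 was lower for Al in wrky47. Against wild type 1 was lower in wrky47 in control solution and 2 in Al, beside 1.87% and 1.0% of all genes. In the same comparisons 1 of 7 COBRA-like genes was lower in wrky47 in control solution and 1 of 15 wall-sensing genes in Al. Under the quantile, median and 75th percentile scalings 1 of the other cellulose genes was 2-fold higher with Al in wild type. Quantile normalization moved the medians for Al in wild type to -0.15 for UDP-glucose supply, 0.10 for COBRA-like and -0.044 for secondary-wall genes. Without a floor the medians were -0.0622 for UDP-glucose supply (Al, wild type), 0.0323 for wall sensing (Al, wrky47) and -0.10 for COBRA-like genes (genotype, control). With the floor at the 60th percentile COBRA-like medians were 0.15 for Al in wild type, -0.10 for the genotype in control solution and 0.24 for the difference of the responses. At that floor 0 COBRA-like genes were higher with Al in wrky47 and 0 wall-sensing genes were higher with Al in either genotype. At 3-fold 0 COBRA-like genes were higher in wild type and 0 wall-sensing genes in either genotype. The cause of these changes was not tested, beyond the fewer genes left by a higher floor. The 7 differences of one cellulose gene relative to another, added as results after seeing the data, kept their sign in the 5 comparisons, except CESA2 relative to CESA6 in the difference of the responses (0.01, and -0.0035 after quantile normalization). Of the 10 genes THE1 alone had no value at the 60th percentile floor.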
